A study of Mus musculus with 18 samples.

Results

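The genes described are 9 enzymes of serine synthesis and folate metabolism, taken by symbol from an RNA-seq gene table of 18397 genes. Phgdh, Psat1 and Psph make serine in the cytosol. Shmt1 and Mthfd1 are folate enzymes of the cytosol, and Shmt2, Mthfd1l, Mthfd2 and Aldh1l2 are folate enzymes of mitochondria. RNA was sequenced from mouse cells that the labels name RAW264.7, which is known as a macrophage line, in 18 libraries. There were 6 groups of 3 libraries: a stiff matrix with an addition labelled mito (Stiff+mito), a stiff matrix under a condition labelled TW (Stiff-TW), a stiff matrix alone (Stiff), and the same 3 states on a soft matrix (Soft+mito, Soft-TW and Soft). The labels spell out neither mito nor TW and give no stiffness values. They name no genotype or drug and no treatment time, and all groups carry the same cell name. Replicates are called biosamples, and separate cultures are not stated, so the p-values reflect the variation among the sequenced libraries alone, and that variation may be technical.

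Serine is built from a glycolytic intermediate by an oxidation, a transamination and a dephosphorylation. Serine hydroxymethyltransferases then move its side-chain carbon onto tetrahydrofolate, and the folate-bound carbon is oxidised or reduced between its methylene, methenyl and formyl forms for the synthesis of purines, thymidylate and methionine. The cytosol and mitochondria hold parallel sets of these enzymes, linked by the exchange of serine, glycine and formate. Many of the genes are textbook targets of the transcription factor Atf4.

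Promoter sequences are shown for 4 of the genes, as the 250 bases before the start site from RefSeq on GRCm38.p6, each written 5′ to 3′ on the strand of its gene. Phgdh (chr3:98339970-98340219, minus strand) and Shmt2 (chr10:127522445-127522694, minus strand) are a cytosolic and a mitochondrial enzyme whose levels followed the most similar course over the libraries. Mthfd2 (chr6:83317605-83317854, minus strand) and Mthfd1l (chr10:3972825-3973074, plus strand) are mitochondrial enzymes whose levels moved in opposite directions in Soft-TW. The start site of a window can differ from the outer end of the gene. The Mthfd2 window lies inside the span of its gene, 83305704 to 83326011. That of Mthfd1l lies partly inside its gene, which begins at 3972892. Capitals mark CCAAT and its reverse complement ATTGG, and TGACG and its reverse complement CGTCA.
Phgdh: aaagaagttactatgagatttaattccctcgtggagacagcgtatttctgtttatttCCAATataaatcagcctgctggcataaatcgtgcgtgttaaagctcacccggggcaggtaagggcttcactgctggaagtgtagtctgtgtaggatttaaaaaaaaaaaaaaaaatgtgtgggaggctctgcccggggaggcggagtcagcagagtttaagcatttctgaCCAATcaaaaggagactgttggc
Shmt2: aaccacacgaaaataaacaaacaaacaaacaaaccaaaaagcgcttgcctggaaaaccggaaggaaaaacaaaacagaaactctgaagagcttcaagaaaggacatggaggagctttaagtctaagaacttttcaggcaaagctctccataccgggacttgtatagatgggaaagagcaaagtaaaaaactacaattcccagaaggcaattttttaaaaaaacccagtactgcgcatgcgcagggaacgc
Mthfd2: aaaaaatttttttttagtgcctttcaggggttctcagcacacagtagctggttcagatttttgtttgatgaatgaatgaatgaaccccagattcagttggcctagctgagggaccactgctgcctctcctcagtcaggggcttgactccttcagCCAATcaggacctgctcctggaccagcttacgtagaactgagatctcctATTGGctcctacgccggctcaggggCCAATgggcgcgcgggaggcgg
Mthfd1l: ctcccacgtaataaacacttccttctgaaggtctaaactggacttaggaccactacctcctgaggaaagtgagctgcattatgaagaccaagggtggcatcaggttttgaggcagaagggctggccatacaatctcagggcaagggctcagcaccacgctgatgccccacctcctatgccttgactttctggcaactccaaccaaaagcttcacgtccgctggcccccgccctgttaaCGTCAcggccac
Letters were searched on both strands of windows of 300 bases (250 before to 50 after the start), of which RefSeq gave 32851 over all genes and 9 for 8 of the enzymes, Psat1 having 2. Aldh1l2 was not matched. CCAAT, the box bound by nuclear factor Y, was in 37.4% of all windows and in 6 of the 9 windows of the enzymes. These were the windows of Phgdh, Psph, Shmt1, Mthfd1 and Mthfd2 and the first of the 2 of Psat1. TGACG, the core of the cAMP response element, was in 20.8% of all windows and in 3 of the 9, those of Psph, Shmt1 and Mthfd1l. TGACNNNGC, whose first letters can overlap TGACG, was in 12.4% of all windows and in 2 of the 9, those of Phgdh and Psph. The composite C/EBP-Atf element TGATGNAA was in 3.97% of all windows and the E-box CACGTG in 7.15%, and both were in 0 of the 9 windows of these enzymes. CCAAT and TGACG were added after the sequences had been read, and a match or its lack in these windows says nothing about binding.

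Total estimated counts per library ran from 16054637 to 16887244. A single library of any of the 9 genes held 325 to 10102 counts, and replicate libraries varied 1.19 to 2.16 times as much as counting error alone would give (chi-square per degree of freedom), so counting error limits the smallest differences below. Most markers of the labelled cell type were low. Of 19 macrophage and myeloid markers, 14 had a mean under 1 TPM in each group, except 10 in Soft-TW, and 3 had a mean of at least 10 TPM over all libraries. Over the 18 libraries Adgre1 reached at most 0.14 TPM (a transcript abundance per length, scaled to a common sum per library), Ptprc 0.27, Itgam 0.41, Spi1 0.74 and Csf1r 1.1 TPM. Cd68 was at 3.95 to 15 TPM, while Krt8 ranged over 431 to 730 TPM and Vim over 1413 to 4229 TPM. Epcam and Cdh1 reached 0.1 and 0.34 TPM. Summed over the 19 macrophage markers, the level was 59.6 to 64.1 TPM in Stiff+mito, 82.1 to 84.5 in Stiff-TW, 46.5 to 51.2 in Stiff, 64.1 to 68.2 in Soft+mito, 106 to 109 in Soft-TW and 54.7 to 55.1 in Soft. Summed over 9 epithelial markers, of which Krt8 and Krt18 alone had a mean of at least 10 TPM, it was 733 to 759 TPM in Stiff+mito, 671 to 682 in Stiff-TW, 696 to 713 in Stiff, 1031 to 1044 in Soft+mito, 764 to 783 in Soft-TW and 999 to 1028 in Soft. Summed over 9 fibroblast and mesenchymal markers, nearly all of it Vim, while Col1a1 was at 1.85 to 3.95 TPM, it was 2068 to 2170 TPM in Stiff+mito, 4342 to 4377 in Stiff-TW, 1498 to 1531 in Stiff, 2521 to 2590 in Soft+mito, 3041 to 3116 in Soft-TW and 2202 to 2278 in Soft. The part of these markers in the results below was not tested. In bulk RNA, fewer cells of a type and less RNA per cell cannot be told apart.

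All 9 enzymes had their highest mean level in Stiff, and none had its lowest in an untreated group. Phgdh was the most abundant in every group, at group means of 214 to 620 TPM, followed by Psat1 at 191 to 384 TPM. The lowest group was Soft-TW for Phgdh, Psat1, Psph, Shmt1 and Shmt2, Stiff-TW for Mthfd1, and Soft+mito for Mthfd1l, Mthfd2 and Aldh1l2. The ratio of the highest to the lowest group mean in TPM was largest for Aldh1l2, 5.67, and Psph, 4.72. It was 2.9 for Phgdh, 2.88 for Shmt2, 2.34 for Mthfd2, 2.14 for Shmt1, 2.01 for Psat1, 1.86 for Mthfd1 and 1.74 for Mthfd1l.

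**Figure D1:**
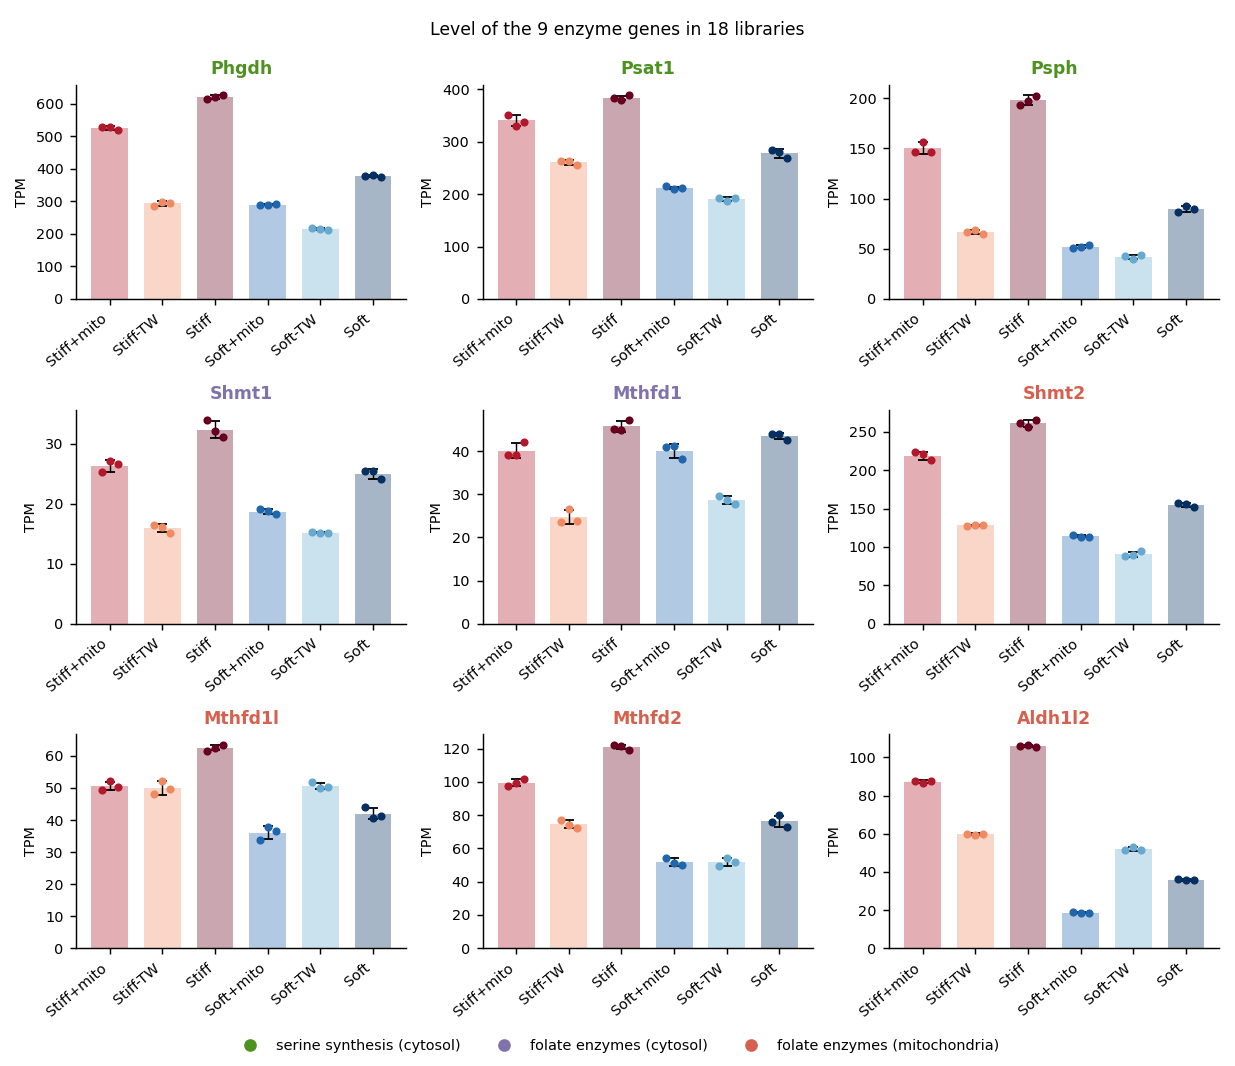
Level of each of the 9 enzymes in TPM (y axis, from 0) in the 6 groups (x axis), with 1 point per library, bars at the mean of 3 and error bars of 1 SD. The Stiff libraries are the highest in each panel, and Mthfd1l and Aldh1l2 are the panels in which Soft-TW lies above Soft.

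Changes were tested on the counts with edgeR's quasi-likelihood test over 12245 genes, with Benjamini-Hochberg adjustment, and a gene was called at an adjusted p under 0.05. Fold changes are from that fit, and the value after ± of a log2 fold change is an approximate standard error. In Stiff against Soft, 9 of 9 enzymes were called higher and 0 lower, against 29.1% and 24.7% of all genes tested. In Soft+mito against Soft 8 were called lower (11.9% of all genes) and 0 higher (14.8%). In Stiff+mito against Stiff 9 were called lower (17.8%) and 0 higher (15.6%), and in Stiff-TW against Stiff 9 lower (34.1%) and 0 higher (35.5%). In Soft-TW against Soft 7 were called lower (28.0%) and 2 higher (28.9%). In each of these 5 comparisons the TPM of the 3 libraries of one group lay wholly above or below the other for 9 of 9 enzymes. Among all genes tested this held for 59.3% in Stiff against Soft, 41.6% in Soft+mito against Soft, 63.6% in Soft-TW against Soft, 41.1% in Stiff+mito against Stiff and 71.2% in Stiff-TW against Stiff. The 3 comparisons on the soft side share the Soft libraries, and those on the stiff side share Stiff.

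**Figure D2:**
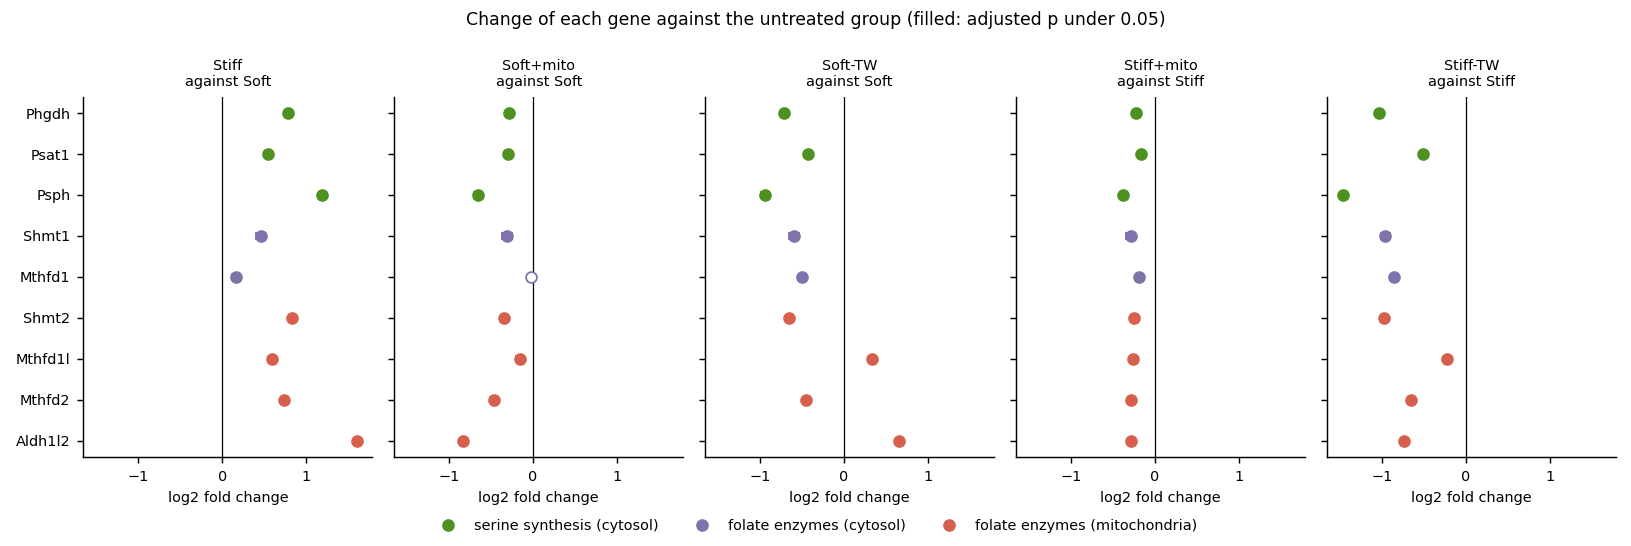
Log2 fold change of each enzyme (x axis) in the 5 comparisons with an untreated matrix, with approximate standard errors, often smaller than the points, and filled points where the adjusted p was under 0.05. All 9 enzymes lie right of 0 in Stiff against Soft, and Mthfd1l and Aldh1l2 lie right of 0 in Soft-TW against Soft.

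The serine synthesis genes were higher in Stiff than in Soft and lower under mito and TW on both matrices, and Psph had the largest fold of the 3 in each case. Phgdh encodes phosphoglycerate dehydrogenase, which commits 3-phosphoglycerate to serine (chromosome 3, 98313171 to 98339969, minus strand). It stood at 529, 528 and 518 TPM in Stiff+mito, 286, 299 and 295 in Stiff-TW, and 615, 621 and 625 in Stiff. It stood at 288, 289 and 290 TPM in Soft+mito, 217, 213 and 211 in Soft-TW, and 378, 379 and 374 in Soft. Stiff was above all other groups, and only Stiff-TW and Soft+mito overlapped. The log2 fold change of Phgdh was -0.23 ± 0.02 in Stiff+mito against Stiff and -0.29 ± 0.022 in Soft+mito against Soft. Under TW it was -1.03 ± 0.022 on the stiff matrix and -0.71 ± 0.023 on the soft one (edgeR, adjusted p = 5.75e-70 and 7.32e-52).

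Psat1 encodes phosphoserine aminotransferase, the transamination step (chromosome 19, 15905123 to 15925059, minus strand). Its levels were 352, 331 and 339 TPM in Stiff+mito, 264, 264 and 255 in Stiff-TW, and 385, 380 and 389 in Stiff. They were 215, 210 and 212 TPM in Soft+mito, 193, 187 and 192 in Soft-TW, and 285, 280.5 and 269 in Soft. No neighbouring groups in the order of levels overlapped. Psat1 had the smallest response of the serine genes to TW, with log2 fold changes of -0.51 ± 0.022 in Stiff-TW against Stiff and -0.43 ± 0.024 in Soft-TW against Soft.

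Psph encodes phosphoserine phosphatase, the last step of serine synthesis (chromosome 5, 129765558 to 129787443, minus strand). Psph was at 146, 157 and 146 TPM in Stiff+mito, 67.1, 68.7 and 64.6 in Stiff-TW, and 193, 197 and 202 in Stiff. Its levels were 51.2, 51.8 and 53.5 TPM in Soft+mito, 42.6, 39.7 and 43.3 in Soft-TW, and 86.4, 92.1 and 89.3 in Soft. Each group was separate from its neighbours, and every Soft library was above every Stiff-TW library. Psph was 2.29-fold higher in Stiff than in Soft, and Stiff-TW had 0.363 times the level of Stiff (log2 fold change -1.46 ± 0.039, edgeR adjusted p = 1.26e-60). Of its exon bases 10.4% are shared with Cct6a on the other strand (251 to 391 TPM). Whether counting used strand is not stated, so reads of the overlap cannot be assigned to either gene.

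The cytosolic folate genes were expressed at lower levels than the serine genes. Their log2 fold changes in Stiff against Soft, 0.46 for Shmt1 and 0.16 for Mthfd1, were smaller than the 0.60 to 1.61 of the 4 mitochondrial enzymes. Shmt1 encodes the cytosolic serine hydroxymethyltransferase (chromosome 11, 60788897 to 60811265, minus strand). Its levels were 25.2, 27.2 and 26.6 TPM in Stiff+mito, 16.5, 16.2 and 15.2 in Stiff-TW, and 34.0, 32.2 and 31.1 in Stiff. They were 19.1, 18.8 and 18.3 TPM in Soft+mito, 15.3, 15.1 and 15.1 in Soft-TW, and 25.5, 25.4 and 24.1 in Soft. Stiff+mito overlapped Soft, and Stiff-TW overlapped Soft-TW. Shmt1 was 1.38-fold higher in Stiff than in Soft, and its level under TW was 0.512 times that of Stiff on the stiff matrix and 0.659 times that of Soft on the soft matrix. In Stiff-TW against Soft-TW the log2 fold change was 0.10 ± 0.065 (edgeR, adjusted p = 0.192), which did not pass. Shmt1 shares 4.74% of its exon bases with Smcr8 on the other strand (9.73 to 20.6 TPM), with the same limit as for Psph.

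Mthfd1 encodes the cytosolic enzyme that carries the dehydrogenase, cyclohydrolase and formyltetrahydrofolate synthetase activities in a single protein (chromosome 12, 76254406 to 76319820, plus strand). It was at 39.0, 39.3 and 42.2 TPM in Stiff+mito, 23.6, 26.6 and 23.8 in Stiff-TW, and 45.2, 44.9 and 47.3 in Stiff. The soft matrix gave 40.9, 41.2 and 38.2 TPM in Soft+mito, 29.6, 28.7 and 27.7 in Soft-TW, and 44.1, 44.0 and 42.8 in Soft. Stiff+mito overlapped Soft+mito, and the other neighbours in the order were separate. Mthfd1 was the enzyme with the smallest matrix difference, a log2 fold change of 0.16 ± 0.037 in Stiff against Soft (edgeR, adjusted p = 0.00017). With limma on log2(TPM + 1) that call was lost, at a log2 fold change of 0.068 and an adjusted p of 0.223, and its adjusted p ranged from 0.000123 to 0.223 over the alternatives. It was the only enzyme not called in Soft+mito against Soft, with 1348, 1364 and 1296 counts in Soft+mito and 1345, 1377 and 1330 in Soft (log2 fold change -0.025 ± 0.038, edgeR adjusted p = 0.674). Its TPM in Soft+mito lay below that in Soft, but the median of all genes in this comparison was -0.072 in log2(TPM + 1) and 0.0073 in the fit to counts. TW lowered it on both matrices, by log2 fold changes of -0.85 ± 0.041 in Stiff-TW against Stiff and -0.50 ± 0.04 in Soft-TW against Soft. It was also the only enzyme called lower in Stiff-TW than in Soft-TW, at -0.20 ± 0.045 (edgeR, adjusted p = 0.000109). Mthfd1 shares 0.833% of its exon bases with Gm47525 on the other strand, for which no level was given.

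The mitochondrial folate genes were all higher in Stiff than in Soft and all lower with mito on both matrices, while Soft-TW divided them. Shmt2 encodes the mitochondrial serine hydroxymethyltransferase (chromosome 10, 127517123 to 127522444, minus strand). Its levels were 223, 221 and 213 TPM in Stiff+mito, 127, 128 and 128 in Stiff-TW, and 261, 256 and 265 in Stiff. On the soft matrix Shmt2 was at 116, 113 and 113 TPM in Soft+mito, 87.7, 90.0 and 94.1 in Soft-TW, and 157, 155 and 152 in Soft. No neighbouring groups overlapped. Shmt2 was lower under TW by log2 fold changes of -0.98 ± 0.025 in Stiff-TW against Stiff and -0.66 ± 0.028 in Soft-TW against Soft, close in size to those of Phgdh. Shmt2 shares 1.03% of its exon bases with Ndufa4l2 on the other strand (13.2 to 52.8 TPM), again with the limit given for Psph.

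Mthfd2 encodes the mitochondrial methylenetetrahydrofolate dehydrogenase and cyclohydrolase (chromosome 6, 83305704 to 83326011, minus strand). Mthfd2 was at 97.6, 99.04 and 102 TPM in Stiff+mito, 76.9, 74.3 and 72.3 in Stiff-TW, and 122, 122 and 119 in Stiff. It was at 54.4, 51.1 and 49.9 TPM in Soft+mito, 49.5, 54.5 and 51.6 in Soft-TW, and 76.1, 79.8 and 73.1 in Soft. Soft-TW and Soft+mito overlapped, as did Soft and Stiff-TW. On the soft matrix its log2 fold changes were -0.47 ± 0.039 with mito and -0.45 ± 0.039 with TW, both against Soft. Mthfd2l, its close relative in mitochondria, was at 9.81 to 14 TPM over the 18 libraries and was not called in Stiff against Soft (log2 fold change 0.027). It was higher under TW, unlike Mthfd2, by 0.28 ± 0.081 in Stiff-TW against Stiff and 0.27 ± 0.08 in Soft-TW against Soft. The call on the stiff matrix was lost without Stiff replicate 3 (0.17), and that on the soft matrix with limma on log2(TPM + 1) (0.16).

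Mthfd1l encodes the mitochondrial formyltetrahydrofolate synthetase, which releases formate (chromosome 10, 3972892 to 4167081, plus strand). Mthfd1l stood at 49.4, 52.1 and 50.4 TPM in Stiff+mito, 48.1, 52.2 and 49.6 in Stiff-TW, and 61.7, 62.6 and 63.5 in Stiff. The soft side had 33.6, 37.9 and 36.7 TPM in Soft+mito, 51.7, 50.1 and 50.3 in Soft-TW, and 44.0, 40.7 and 41.2 in Soft. Its 3 middle groups, Soft-TW, Stiff+mito and Stiff-TW, overlapped. Mthfd1l was higher in Soft-TW than in Soft, by a log2 fold change of 0.33 ± 0.036 (edgeR, adjusted p = 1.89e-14), and lower in Stiff-TW than in Stiff, by -0.22 ± 0.033 (adjusted p = 7.55e-09). Its difference between the matrices did not pass under TW, at 0.05 ± 0.034 in Stiff-TW against Soft-TW (adjusted p = 0.219).

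Aldh1l2 encodes the mitochondrial 10-formyltetrahydrofolate dehydrogenase, which forms NADPH as it releases the carbon as carbon dioxide (chromosome 10, 83487447 to 83534146, minus strand). Aldh1l2 stood at 87.5, 86.3 and 87.7 TPM in Stiff+mito, 60.1, 59.2 and 59.8 in Stiff-TW, and 106, 107 and 105 in Stiff. It stood at 19.2, 18.4 and 18.5 TPM in Soft+mito, 51.7, 53.1 and 51.4 in Soft-TW, and 36.5, 35.7 and 35.6 in Soft. It was the only enzyme with all 3 stiff groups above all 3 soft groups, and no groups overlapped. Aldh1l2 was higher in Soft-TW than in Soft, with a log2 fold change of 0.66 ± 0.026 (edgeR, adjusted p = 3.47e-44), and lower in Stiff-TW than in Stiff, with -0.74 ± 0.023 (adjusted p = 1e-54). The matrix difference was widest with mito, at 4.48-fold in Stiff+mito against Soft+mito, and narrowest under TW, at 1.15-fold in Stiff-TW against Soft-TW. Of its exon bases 14.1% are shared with D10Wsu102e on the other strand (41.2 to 62.4 TPM), which carries the same limit as for Psph. Aldh1l1, its cytosolic relative, had 0 to 4 counts per library and was not tested.

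**Figure D3:**
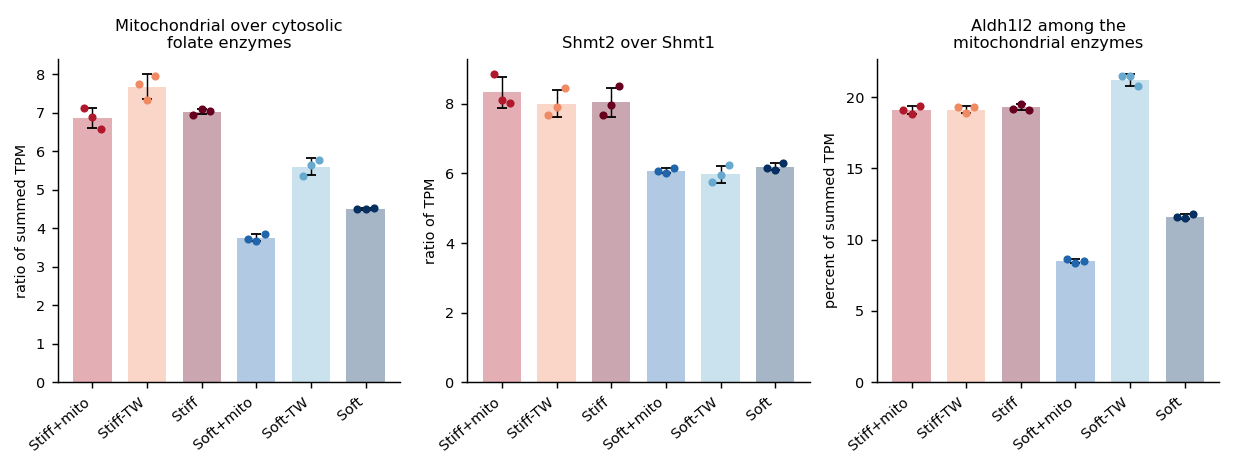
Ratio of the summed TPM of the mitochondrial to the cytosolic folate enzymes (left), ratio of Shmt2 to Shmt1 in TPM (middle) and percent of the mitochondrial sum held by Aldh1l2 (right), by group (x axis), with bars at the mean of 3 libraries, error bars of 1 SD and 1 point per library. The left ratio is 3.68 to 3.85 in Soft+mito, 4.49 to 4.52 in Soft and above 6 in the 9 libraries on the stiff matrix.

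The summed transcripts of the 4 mitochondrial folate enzymes exceeded those of the 2 cytosolic ones in every library, and more so on the stiff matrix. The sums hold unequal numbers of genes, and Shmt2 was the largest part of the mitochondrial one, at 155 of 309 TPM in Soft. Gene by gene the order could turn. In Soft+mito, Mthfd1l averaged 36.1 TPM and Aldh1l2 18.7 TPM, beside 40.1 TPM for Mthfd1. The summed TPM of Shmt2, Mthfd1l, Mthfd2 and Aldh1l2 averaged 456 ± 2.7 in Stiff+mito, 312 ± 1.89 in Stiff-TW, 550 ± 3.11 in Stiff, 220 ± 2.58 in Soft+mito, 245 ± 4.01 in Soft-TW and 309 ± 6.23 in Soft (SD, n = 3 each). The sum of Shmt1 and Mthfd1 averaged 66.5 ± 2.22 TPM in Stiff+mito, 40.7 ± 1.96 in Stiff-TW, 78.2 ± 1.06 in Stiff, 58.8 ± 2.03 in Soft+mito, 43.8 ± 1.03 in Soft-TW and 68.6 ± 1.56 in Soft. Between Stiff and Soft the mitochondrial sums were further apart than the cytosolic ones. The ratio of the sums was 6.87 ± 0.263 in Stiff+mito, 7.68 ± 0.32 in Stiff-TW, 7.03 ± 0.074 in Stiff, 3.75 ± 0.0918 in Soft+mito, 5.6 ± 0.214 in Soft-TW and 4.5 ± 0.0151 in Soft. TW had the higher ratio on both matrices although both sums were lower than without it. On the soft matrix the lower mitochondrial sum joined lower Shmt2 and Mthfd2 (log2 fold changes -0.66 and -0.45) to higher Mthfd1l and Aldh1l2 (0.33 and 0.66). These sums and ratios are descriptions without a test, and averaging log2(TPM + 1) per enzyme in place of summing put the log2 ratio difference at 0.51 rather than 0.31 in Soft-TW against Soft and at 0.21 rather than 0.13 in Stiff-TW against Stiff.

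Within the pairs of counterparts the order of groups differed. Shmt2 over Shmt1 in TPM was 8.33 ± 0.45 in Stiff+mito, 8.01 ± 0.4 in Stiff-TW, 8.05 ± 0.421 in Stiff, 6.08 ± 0.0674 in Soft+mito, 5.98 ± 0.243 in Soft-TW and 6.19 ± 0.103 in Soft (SD, n = 3 each), so it separated the matrices but not the 3 states of a matrix. Mthfd1l over Mthfd1 was 1.26 ± 0.0659 in Stiff+mito, 2.03 ± 0.0618 in Stiff-TW, 1.37 ± 0.0255 in Stiff, 0.9 ± 0.0714 in Soft+mito, 1.77 ± 0.0405 in Soft-TW and 0.962 ± 0.0363 in Soft, which set the TW groups apart. Mthfd2 over Mthfd1 was 2.48 ± 0.0562 in Stiff+mito, 3.03 ± 0.231 in Stiff-TW and 2.64 ± 0.102 in Stiff. On the soft matrix it was 1.29 ± 0.0452 in Soft+mito, 1.81 ± 0.122 in Soft-TW and 1.75 ± 0.0554 in Soft. The Soft-TW and Soft libraries overlapped in this ratio, so it did not set TW apart there. Aldh1l2 made up 19.1% ± 0.256 of the mitochondrial sum in Stiff+mito, 19.1% ± 0.244 in Stiff-TW, 19.3% ± 0.214 in Stiff, 8.49% ± 0.13 in Soft+mito, 21.2% ± 0.4 in Soft-TW and 11.6% ± 0.173 in Soft. Its share was thus alike in the stiff groups and varied among the soft ones.

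Whether mito and TW acted differently on the 2 matrices was tested as an interaction, the log2 fold change on the stiff matrix minus that on the soft one. For mito, 5 enzymes were called with a positive interaction, against 10.4% of all genes, and 1 with a negative one, against 13.1%. The positive values mean a smaller decrease on the stiff matrix, and the largest were Aldh1l2 at 0.56 ± 0.038 (edgeR, adjusted p = 6.58e-24) and Psph at 0.28 ± 0.057 (adjusted p = 9.66e-05). Mthfd2, Psat1 and Shmt2 were at 0.19 ± 0.051, 0.13 ± 0.032 and 0.10 ± 0.035. Mthfd1 was at -0.16 ± 0.053 (edgeR, adjusted p = 0.0159), and Phgdh, Shmt1 and Mthfd1l were not called, at 0.055, 0.023 and -0.10. The call of Mthfd1 was lost under DESeq2, library totals and limma, and without Stiff+mito replicate 1 (-0.13), Stiff replicate 3 (-0.14) or Soft+mito replicate 2 (-0.14), over a range of adjusted p of 0.0029 to 0.506. That of Shmt2 was lost under DESeq2 and without Stiff+mito replicate 2 (0.094), Stiff replicate 2 (0.092) or Soft replicate 2 (0.10), over 0.00139 to 0.0639.

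For TW, 8 enzymes had a negative interaction, against 19.7% of all genes, and 0 a positive one, against 16.4%. Aldh1l2 was at -1.40 ± 0.035 (edgeR, adjusted p = 1.67e-61), Mthfd1l at -0.55 ± 0.049 (4.68e-18) and Psph at -0.53 ± 0.064 (1.8e-11). For Aldh1l2 and Mthfd1l this joined an increase on the soft matrix to a decrease on the stiff one. For the other called enzymes, with interactions of -0.36 for Shmt1, -0.35 for Mthfd1, -0.32 for Shmt2, -0.31 for Phgdh and -0.20 for Mthfd2, TW lowered the level on both matrices and by more on the stiff one. Psat1 was not called, at -0.073 ± 0.032 (edgeR, adjusted p = 0.0662). It passed at 0.0363 when only the 4 groups were fitted and at 0.041 without Soft-TW replicate 2, within a range of 0.0363 to 0.791 over the alternatives.

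**Figure D4:**
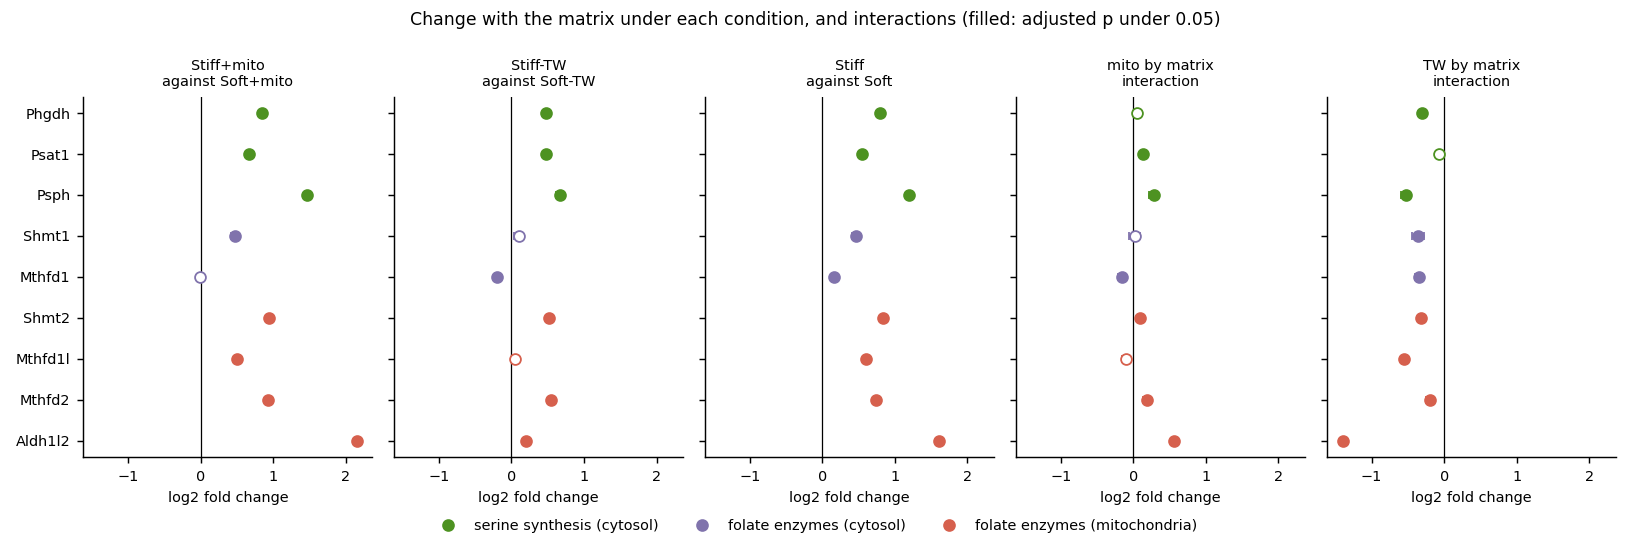
Log2 fold change between the matrices (x axis) for each enzyme under mito, under TW and untreated, and both interaction terms, with approximate standard errors, often smaller than the points, and filled points where the adjusted p was under 0.05. Aldh1l2 lies at 2.16 under mito, 0.20 under TW and 1.61 untreated, and Mthfd1 lies near 0 under mito and left of 0 under TW.

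Read as matrix differences, the same data gave 8 of 9 enzymes called higher in Stiff+mito than in Soft+mito (32.7% of all genes) and 0 lower (30.8%). In Stiff-TW against Soft-TW 6 were called higher (27.6%) and 1 lower (26.7%). The libraries did not overlap in TPM for 8 of 9 enzymes under mito, against 63.2% of all genes tested, and for 7 of 9 under TW, against 59.3%. The median log2 fold change of the 9 was 0.85 under mito and 0.47 under TW, against 0.74 without either. Over all genes tested these medians were 0.014, 0.0021 and 0.015.

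Transcript levels were given for Psph and Aldh1l2 as divided by the authors' quantification, which makes the split an estimate. A single predicted Psph transcript held most of the gene, 139 TPM in Stiff+mito, 54.3 in Stiff-TW, 185 in Stiff, 40.8 in Soft+mito, 30.5 in Soft-TW and 79.5 in Soft. The curated Psph transcript was at 5 TPM in Stiff+mito, 9.83 in Stiff-TW, 5.56 in Stiff, 9.65 in Soft+mito, 9.88 in Soft-TW and 6.87 in Soft, so the gene's differences lay in the predicted one. For Aldh1l2 the curated transcript held most, at 79.4 TPM in Stiff+mito, 49.9 in Stiff-TW, 96.2 in Stiff, 15.4 in Soft+mito, 42.5 in Soft-TW and 30 in Soft. Phgdh had 1 transcript.

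The genes with the most similar course were found as those with the smallest root mean square difference in centred log2 CPM over the 18 libraries, among genes with a mean of at least 5 CPM. Phgdh and Shmt2 were each the nearest gene to the other, at 0.053, beside a root mean square variation of 0.514 for Phgdh and 0.518 for Shmt2 themselves. The next for Phgdh were the cytosolic aminoacyl-tRNA synthetase genes Nars (0.0811) and Lars (0.0856) and the glycine carrier gene Slc6a9 (0.0926). Shmt1 was nearest to Tars (0.0839), Slc3a2 (0.0886) and Aars (0.0968), and Mthfd2 to Bcat1 (0.103) and to Asns (0.106), which encodes asparagine synthetase. Psat1 was nearest to Dpysl3 (0.0674) and Psph to Slc7a5 (0.197), which encodes an amino acid carrier. Mthfd1 was nearest to Rars2 (0.0507) and had the purine synthesis gene Adsl among its 5 nearest (0.0639). Mthfd1l was nearest to Rhbdd1 (0.0673) and Aldh1l2 to Angptl6 (0.184), and apart from Phgdh and Shmt2 no enzyme had another of the 9 among its 5 nearest. The measure is not scaled, so genes of like course but unlike size of change count as different. The enzymes' own root mean square variation ran from 0.256 for Mthfd1l to 0.82 for Aldh1l2.

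**Figure D5:**
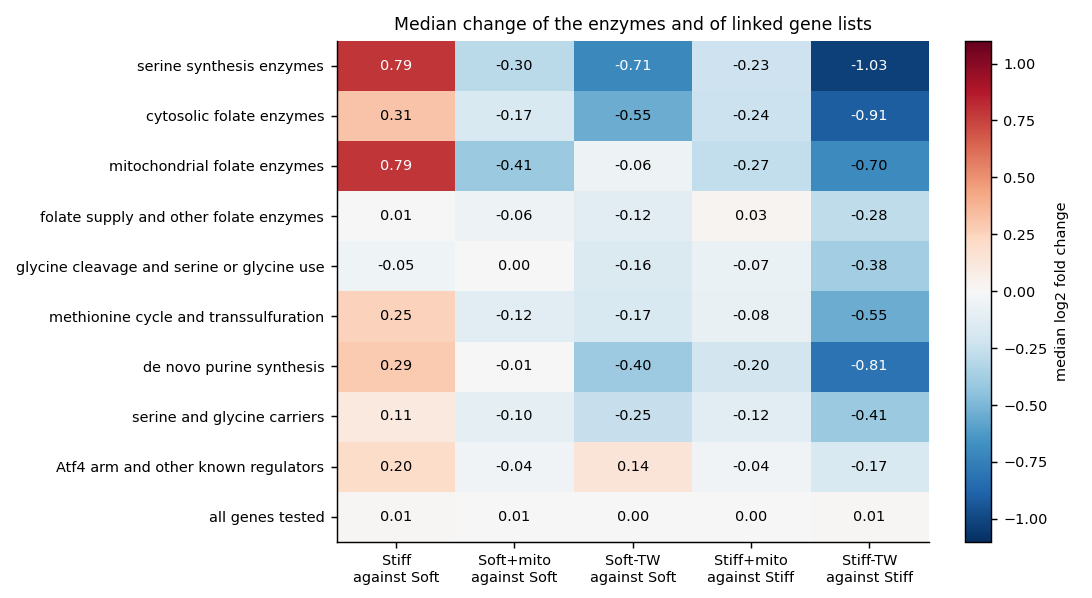
Median log2 fold change (colour, and value in each cell) of the 3 groups of enzymes, of 6 lists of linked genes and of all genes tested (y axis) in the 5 comparisons with an untreated matrix (x axis). The serine synthesis and the mitochondrial folate enzymes stand at 0.79 in Stiff against Soft, where the cytosolic folate enzymes stand at 0.31, and all genes are within 0.015 of 0 in each column.

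Genes linked to these enzymes were followed in 6 lists, in the same 5 comparisons. The counts of each list stand beside the shares of all genes tested that were called higher and lower, which were 29.1% and 24.7% in Stiff against Soft, 14.8% and 11.9% in Soft+mito against Soft, 28.9% and 28.0% in Soft-TW against Soft, 15.6% and 17.8% in Stiff+mito against Stiff and 35.5% and 34.1% in Stiff-TW against Stiff. De novo purine synthesis, which takes formyl groups from folate, had 7 of 8 genes called higher and 1 lower in Stiff against Soft (29.1% and 24.7% of all genes), with a median log2 fold change of 0.29 beside 0.015 for all genes. It had 7 of 8 lower in Stiff-TW against Stiff (34.1% of all genes, median -0.81), 7 of 8 lower in Soft-TW against Soft (28.0%, -0.40) and 6 of 8 lower in Stiff+mito against Stiff (17.8%, -0.20). In Soft+mito against Soft 2 of 8 were lower (11.9%, -0.0081). Atic, the last enzyme of the route, averaged 170 TPM in Stiff and 131 TPM in Soft, and its log2 fold change was -0.88 in Stiff-TW against Stiff. Gart, which uses formyltetrahydrofolate, was at 39.2 TPM in Stiff-TW and 78.5 TPM in Stiff.

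Of 8 tested serine and glycine carriers, 4 were higher and 1 lower in Stiff against Soft (29.1% and 24.7% of all genes, median 0.11). In Soft+mito against Soft 3 were lower (11.9%, median -0.10), in Soft-TW against Soft 6 (28.0%, -0.25) and in Stiff+mito against Stiff 4 (17.8%, -0.12). In Stiff-TW against Stiff 6 were lower and 1 higher (34.1% and 35.5%, -0.41). Slc6a9, which encodes the glycine carrier GlyT1, had the largest fold of those called in the list in all 5, with log2 fold changes of 0.78 in Stiff against Soft, -0.38 in Soft+mito against Soft, -0.60 in Soft-TW against Soft, -0.27 in Stiff+mito against Stiff and -1.13 in Stiff-TW against Stiff. Slc1a4 and Slc1a5, neutral amino acid exchangers, moved the same way in the 5 comparisons, at 0.37 and 0.56 in Stiff against Soft and -0.79 and -0.69 in Stiff-TW against Stiff.

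Of 8 tested methionine cycle and transsulfuration genes, 4 were higher and 0 lower in Stiff against Soft (29.1% and 24.7% of all genes, median 0.25), and 4 were lower and 0 higher in Soft+mito against Soft (11.9% and 14.8%, -0.12). In Soft-TW against Soft 4 were lower and 3 higher (28.0% and 28.9%, -0.17), so the calls went both ways. In Stiff+mito against Stiff 4 were lower and 1 higher (17.8% and 15.6%, -0.082), and in Stiff-TW against Stiff 5 and 1 (34.1% and 35.5%, -0.55). Cth, the cystathionine lyase that yields cysteine, was at 39.6 to 42 TPM in Stiff+mito, 15.8 to 16.9 in Stiff-TW, 53.6 to 59.9 in Stiff, 7.53 to 9.1 in Soft+mito, 9.97 to 11.1 in Soft-TW and 17.4 to 20.8 in Soft. Stiff-TW thus fell below Soft for Cth, whereas for Aldh1l2 it lay above. Mat2a, which makes S-adenosylmethionine, had log2 fold changes of -0.91 in Stiff-TW against Stiff and -0.58 in Soft+mito against Soft.

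The remaining folate genes had a median near that of all genes in Stiff against Soft. Of 12 tested genes of folate supply and folate interconversion, 4 were higher and 2 lower in Stiff against Soft (29.1% and 24.7% of all genes, median 0.0051), near the shares of all genes. The higher and lower counts were 2 and 3 in Soft+mito against Soft (14.8% and 11.9% of all genes, -0.058) and 2 and 5 in Soft-TW against Soft (28.9% and 28.0%, -0.12). They were 0 and 3 in Stiff+mito against Stiff (15.6% and 17.8%, 0.033) and 3 and 7 in Stiff-TW against Stiff (35.5% and 34.1%, -0.28). The folate carrier gene Slc46a1 was lower in Stiff (3.65 TPM) than in Soft (7.69 TPM). Of 9 tested genes of glycine cleavage and of serine or glycine use, 3 were higher and 2 lower in Stiff against Soft (29.1% and 24.7% of all genes, median -0.048), also near those shares. The higher and lower counts were 0 and 2 in Soft+mito against Soft (14.8% and 11.9% of all genes, 0.0036) and 0 and 6 in Soft-TW against Soft (28.9% and 28.0%, -0.16). They were 0 and 1 in Stiff+mito against Stiff (15.6% and 17.8%, -0.073) and 0 and 6 in Stiff-TW against Stiff (35.5% and 34.1%, -0.38). Sptlc1, a subunit of the serine palmitoyltransferase that starts sphingolipid synthesis, had a log2 fold change of -0.72 in Stiff-TW against Stiff.

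Among 14 genes of the Atf4 arm and other regulators, 8 were higher and 2 lower in Stiff against Soft (29.1% and 24.7% of all genes, median 0.20). The higher and lower counts were 2 and 5 in Soft+mito against Soft (14.8% and 11.9%, -0.04), 8 and 6 in Soft-TW against Soft (28.9% and 28.0%, 0.14), 3 and 5 in Stiff+mito against Stiff (15.6% and 17.8%, -0.04) and 4 and 8 in Stiff-TW against Stiff (35.5% and 34.1%, -0.17). The transcript of Atf4 itself averaged 654 ± 2.78 TPM in Stiff+mito, 590 ± 4.88 in Stiff-TW, 832 ± 15.2 in Stiff, 615 ± 1.21 in Soft+mito, 536 ± 8.08 in Soft-TW and 684 ± 9.87 in Soft (SD, n = 3 each). Atf4 thus shared with the enzymes its highest level in Stiff, and with 5 of them its lowest in Soft-TW. Its log2 fold change was 0.36 in Stiff against Soft, -0.33 in Stiff+mito against Stiff and -0.44 in Stiff-TW against Stiff. In Soft-TW against Soft it was -0.24. Its mito interaction was -0.27 (edgeR, adjusted p = 2.07e-13), a larger decrease on the stiff matrix, opposite in sign to the 5 enzymes called with a positive one. Atf4 was at -0.062 in Soft+mito against Soft, a call that was lost without Soft replicate 3 (-0.049) and without Soft+mito replicate 2 (-0.056). Atf5, a related factor, had log2 fold changes of 1.00 in Stiff against Soft, -0.77 in Soft-TW against Soft and -1.73 in Stiff-TW against Stiff. Trib3 was at 1.34 in Stiff against Soft, -0.46 in Stiff+mito against Stiff and -1.20 in Stiff-TW against Stiff. On the soft matrix Trib3 was at -0.64 with mito and 0.091 with TW, both against Soft. Ddit3, which encodes the stress factor CHOP, was higher in Soft-TW (218 TPM) than in Soft (156 TPM), as Aldh1l2 and Mthfd1l were. Ddit3 was also higher in Stiff-TW than in Stiff (log2 fold change 0.42, edgeR adjusted p = 1.57e-19), where those enzymes were lower. It was lower in Stiff+mito (113 TPM) than in Stiff (213 TPM). Atf3, a stress-induced factor of the same family, was higher with mito, by 0.75 in Stiff+mito against Stiff and 0.75 in Soft+mito against Soft, where the called enzymes were lower. The mito interactions in this list had mixed signs. Atf5 was at 0.13 and Trib3 at 0.18 (edgeR, adjusted p = 0.0215 and 0.000908), the sign of those 5 enzymes. Ddit3 was at -0.55 (adjusted p = 3.39e-12), the sign of Atf4. The TW interaction was -0.20 for Atf4, -0.95 for Atf5 and -1.29 for Trib3 (edgeR, adjusted p = 1.09e-08, 6.54e-30 and 1.32e-50). These have the sign of the 8 enzymes called in the TW interaction. Eif2ak3, also in the list, was at 0.41 (adjusted p = 1.53e-06), the other sign, and Ddit3 was not called, at -0.12. All of these values are of transcripts and not of proteins, and the part of Atf4 was not tested.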

How the data were processed

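Per the labels' protocols, poly(A) RNA gave strand-specific, paired-end libraries. The submitters' processing notes name the build mm10. Aligner, counting tool and annotation: not given in the sources used here. Per gene, the authors deposited estimated counts, which are expected counts that may divide a read between features. With a tolerance of 0.001, 10.9% of the values in the table were fractional, but all 162 values of the 9 enzymes were whole. Levels are in the authors' TPM. The authors' 44 columns of group averages in each table were not used. A transcript table of the same kind was used for isoforms.

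Estimated counts were rounded and tested in R 4.3.3 with edgeR 4.0.16 (filterByExpr by group, TMM, quasi-likelihood F-test, two-sided). All 18 libraries entered a model with a mean per group, and p-values were adjusted by Benjamini-Hochberg over 12245 genes. There were 9 comparisons. The approximate standard error is the absolute log2 fold change over the root of F, and may understate the error of large changes. The common biological coefficient of variation was 0.0175, so small changes passed. Counts and TPM differ in scale: the TPM of Stiff, Soft+mito and Soft-TW read lower relative to Soft than the scaled counts did. The median over all genes was -0.055, -0.072 and -0.092 in log2(TPM + 1), in that order. In the fit to counts it was 0.015, 0.0073 and -0.0037.

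Alternatives were DESeq2 1.42.0, its size factors in edgeR, library totals, no low-count filter, limma 3.58.1 on log2(TPM + 1), only the groups compared, a replicate block and each library left out. The test was checked on simulated counts in which a small set of genes changed in a single group and all genes shared the common coefficient of variation. That check does not cover data in which many genes change, as here.

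The 9 enzymes are always named. From each list, up to 3 genes with the largest fold among those called and of at least 5 CPM could be named in the 5 comparisons with an untreated matrix, and Aldh1l1, Mthfd2l, Atf4 and Cth are always given. A gene of these lists is not reported here. The enzymes and lists were chosen with earlier results of these data known. Positions and promoters are from RefSeq on GRCm38.p6, the assembly behind mm10, and exon overlaps from GENCODE.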

Additional observations from a re-analysis of the deposited data

Results flagged for a closer look

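For 14 pairs of enzyme and treatment, the effect on the stiff matrix differed from that on the soft matrix by the interaction term of the edgeR model. Values are log2 fold changes on the stiff matrix minus those on the soft matrix, with adjusted p-values over all genes tested (Benjamini-Hochberg). Of all genes tested, 10.4% were called with a positive and 13.1% with a negative mito interaction. For TW these shares were 16.4% and 19.7%. The calls of Mthfd1 and Shmt2 with mito and of Mthfd2 with TW were lost under some of the alternatives.

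With mito the difference was 0.56 for Aldh1l2 (adjusted p = 6.58e-24), 0.28 for Psph (9.66e-05), 0.19 for Mthfd2 (0.00267), 0.13 for Psat1 (0.00131), 0.10 for Shmt2 (0.0238) and -0.16 for Mthfd1 (0.0159). With TW it was -1.40 for Aldh1l2 (adjusted p = 1.67e-61), -0.55 for Mthfd1l (4.68e-18), -0.53 for Psph (1.8e-11), -0.36 for Shmt1 (0.000202), -0.35 for Mthfd1 (2.91e-07), -0.32 for Shmt2 (3.87e-12), -0.31 for Phgdh (3.87e-15) and -0.20 for Mthfd2 (0.00114). For Aldh1l2 and Mthfd1l under TW, all 3 Soft-TW libraries were above those of Soft in TPM, and all 3 Stiff-TW libraries were below those of Stiff.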

How the results depend on the processing

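Of 1161 values of the enzymes recomputed under the alternatives, 1145 kept their direction and side of the threshold, 12 were no longer called, 4 became called and 0 changed sign among those called. Of 1427 for the other named genes, 1388 kept both and 39 were no longer called. The count of enzymes lower in the mito interaction was 0 in place of 1 under DESeq2, library totals and limma on log2(TPM + 1), and 0 to 1 with each library left out. Mthfd2 under TW lost its interaction call with limma on log2(TPM + 1) (adjusted p 0.0536, range 0.00035 to 0.0536). Phgdh under mito gained one with library totals (0.0317) and with limma (0.00114, range 0.00114 to 0.313). With the mean of log2(TPM + 1) the mitochondrial to cytosolic difference in log2 was 0.66 in Stiff against Soft, 0.51 in Soft-TW against Soft, 0.21 in Stiff-TW against Stiff and 0.36 in Stiff-TW against Soft-TW. Same-numbered libraries of compared groups had deviations correlated at -0.108 to 0.101, and 16 of 42 correlated best with their own number (6 of 6 in Stiff+mito against Soft+mito, at 0.0363 to 0.0737). The correlations did not all pass 0.1, so the numbers were not taken as pairs. With a replicate block 6634 genes were called in Stiff against Soft in place of 6588, and no call of an enzyme changed. With replicates near counting error, depth limits the smallest changes of the enzymes. Aldh1l1, at 0 to 4 counts per library, was close to absent and did not pass the low-count filter.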
